A study of Arabidopsis thaliana with 9 samples.

Results

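GH3.3 (AT2G23170) and LBD16 (AT2G42430) are a pair of auxin-responsive genes of Arabidopsis thaliana, and their transcript levels were followed in roots carried on a jet flight and in roots kept on the ground. They are 2 of the 16550 genes that could be named and tested, and each was measured by a single probe set that names no other gene. Both were chosen by their levels on these same arrays, where earlier results showed higher values in flight roots than in ground roots. Their values over the 3 tubes are therefore given as a description, without a test.

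Auxin is the plant hormone that directs root growth, gravity responses and the founding of lateral roots. It acts by promoting the breakdown of Aux/IAA repressor proteins, which frees ARF transcription factors to switch on target genes. GH3.3 encodes an amido synthetase that joins auxin to amino acids and so lowers the pool of active hormone, and GH3 genes are themselves induced by auxin. LBD16 encodes a LATERAL ORGAN BOUNDARIES DOMAIN transcription factor that acts downstream of ARF7 and ARF19 in the pericycle, where it drives the first asymmetric divisions of a new lateral root.

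All roots came from 10-day-old seedlings of the Wassilewskija (WS) background, grown in 24-h light, that overexpressed the 14-3-3 protein kappa fused to GFP (pCaMV35S:14-3-3κ:GFP). Ground, first-actuated and last-actuated roots all carried this transgene, which the 35S promoter of cauliflower mosaic virus drives in most tissues, and no untransformed seedlings were among the samples analysed here. Seedlings in closed tubes flew on the second F-104 Starfighter flight or stayed below, and the preservative RNAlater was released at set moments. In the Ground Control tube this happened while the jet was up, in the First-Actuated tube right after microgravity, and in the Last-Actuated tube once level flight had lasted about 1.5 min. The flight held a climb at 4 g for roughly 30 s, about 10 s of microgravity and a brief pull-up at raised g. Whole roots of each tube were divided into 3 replicates, giving 9 arrays. Each condition was thus 1 tube, so that an effect of the tube and one of the condition cannot be told apart. P-values measure only the spread among roots within tubes, which the main fit pools over all 3 tubes, the one not compared included.

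The arrays report normalized log2 expression values, on which a difference of 1 is a doubling, and their number limits the precision. Pearson correlations between arrays of a tube, taken across genes that are not independent replicates, were 0.976 to 0.984 for ground, 0.990 to 0.991 for first-actuated and 0.984 to 0.989 for last-actuated roots. The root markers fixed for this check had 3 measured genes of 14, namely PYK10, EXPA7 and EXPA18, and their summed level lay between 19.8 and 21.3 on every array. The 2 measured shoot markers of 8, RCA and LHCB4.1, summed to between 11.3 and 11.8. Genes of the chloroplast genome were also fixed as shoot markers, and these differed between ground and flight arrays. Their median deviation over 63 genes was 1.22, -0.0050 and 0.82 in ground replicates 1, 2 and 3. On the flight arrays it was -0.48 to -0.15. In a whole root, fewer cells of a type and less RNA per cell cannot be told apart.

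GH3.3 stood highest in the roots fixed right after microgravity. Its level was 6.76, 6.51 and 6.65 on the 3 first-actuated arrays, against 4.51, 5.59 and 4.93 on the 3 ground arrays. The last-actuated arrays read 5.46, 5.71 and 5.63. Every first-actuated array therefore lay above every array of the other tubes, while ground replicate 2 fell inside the last-actuated range. The lowest first-actuated array exceeded the highest ground array by 0.92 and the highest last-actuated array by 0.80.

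The group means of GH3.3 were 5.01 ± 0.54 (SD, n = 3) on the ground, 6.64 ± 0.12 right after microgravity and 5.60 ± 0.12 after level flight. First-actuated roots exceeded ground roots by 1.63 ± 0.23 on the log2 scale (limma estimate ± SE), a 3.09-fold difference. Last-actuated roots lay 0.59 ± 0.23 above the ground, or 1.50-fold, and this difference was smaller than the range among the ground arrays (1.08). Between the flight tubes the log2 difference was -1.04 ± 0.23, a level 2.05-fold lower after level flight than right after microgravity. In order of level the tubes ran ground, last-actuated, first-actuated, and the lower pair did not separate beyond their spread.

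LBD16 was higher in both flight tubes than on the ground. The ground arrays read 6.79, 6.93 and 6.73. The first-actuated arrays read 7.36, 7.31 and 7.36, and the last-actuated arrays 7.73, 7.28 and 7.57. All 6 flight arrays lay above all 3 ground arrays, with gaps of 0.38 for the first-actuated and 0.35 for the last-actuated tube, and the flight tubes overlapped each other.

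The group means of LBD16 were 6.82 ± 0.10 (SD, n = 3), 7.34 ± 0.031 and 7.53 ± 0.23 for ground, first-actuated and last-actuated roots. The log2 difference from ground was 0.53 ± 0.13 (SE) right after microgravity, or 1.44-fold, and 0.71 ± 0.13 after level flight, or 1.64-fold. Last-actuated minus first-actuated gave 0.18 ± 0.13, less than the range among the last-actuated arrays (0.45). The order of means was ground, first-actuated, last-actuated, and the upper pair did not separate beyond their spread. LBD16 had its highest mean in the last-actuated tube and GH3.3 in the first-actuated one.

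**Figure D1:**
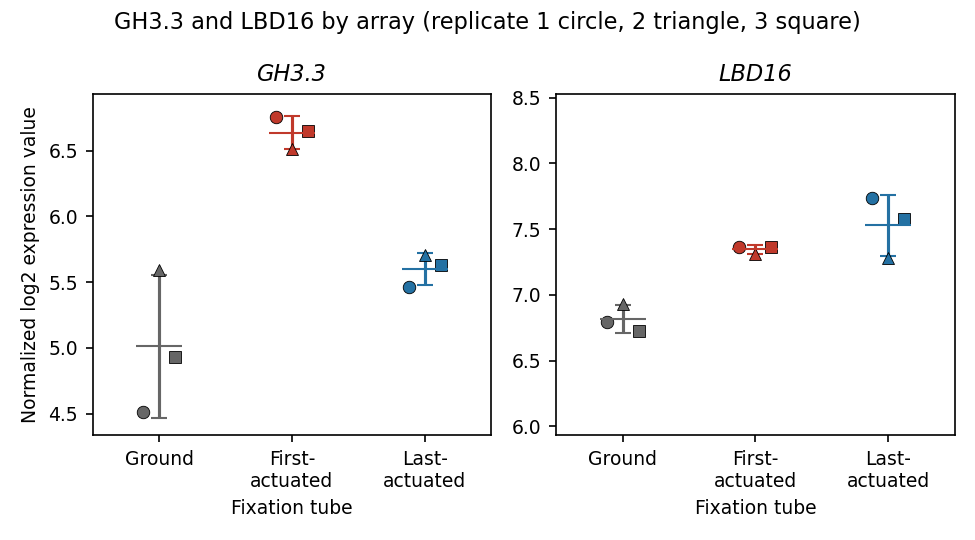
Normalized log2 expression values (vertical axes, drawn with the same span in both panels) of GH3.3 and LBD16 in the 3 fixation tubes (horizontal axes); points are arrays, horizontal lines group means and bars the SD of 3 arrays. GH3.3 separates the first-actuated arrays (6.51 to 6.76) from all others, and LBD16 separates both flight tubes (7.28 to 7.73) from the ground (6.73 to 6.93).

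Set against all genes, arrays of 2 tubes often failed to overlap. Every first-actuated array lay above every ground array for 9.41% of genes, and every last-actuated array above every ground array for 7.26%. Every last-actuated array lay below every first-actuated array, as for GH3.3, for 9.09%. These shares are given as background, and nothing is read from the lack of overlap of GH3.3 and LBD16, which were chosen for it. The arrangement of GH3.3, first-actuated above both other tubes and those overlapping, was shared by 632 genes, or 3.82%. The arrangement of LBD16, both flight tubes above ground and overlapping each other, was shared by 347 genes, or 2.1%. By limma at a Benjamini-Hochberg adjusted p under 0.05, 776 of 16550 genes were called between first-actuated and ground roots (4.69%), 151 between last-actuated and ground roots (0.912%) and 371 between the flight tubes (2.24%).

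The sizes of the differences ranked apart. Right after microgravity 53 genes, or 0.320% of those tested, exceeded the ground by more than GH3.3 did, and 752, or 4.54%, by more than LBD16 did. After level flight the order was the other way, with 278 genes (1.68%) above GH3.3 and 165 (0.997%) above LBD16. That order rested on single arrays, since without ground replicate 2 the difference was 0.88 for GH3.3 and 0.77 for LBD16, and without last-actuated replicate 1 it was 0.66 and 0.61. From the first-actuated to the last-actuated tube, 90 genes (0.544%) had a more negative difference than GH3.3. The first and last comparisons with ground share the ground arrays, so their values for a gene are not independent.

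**Figure D2:**
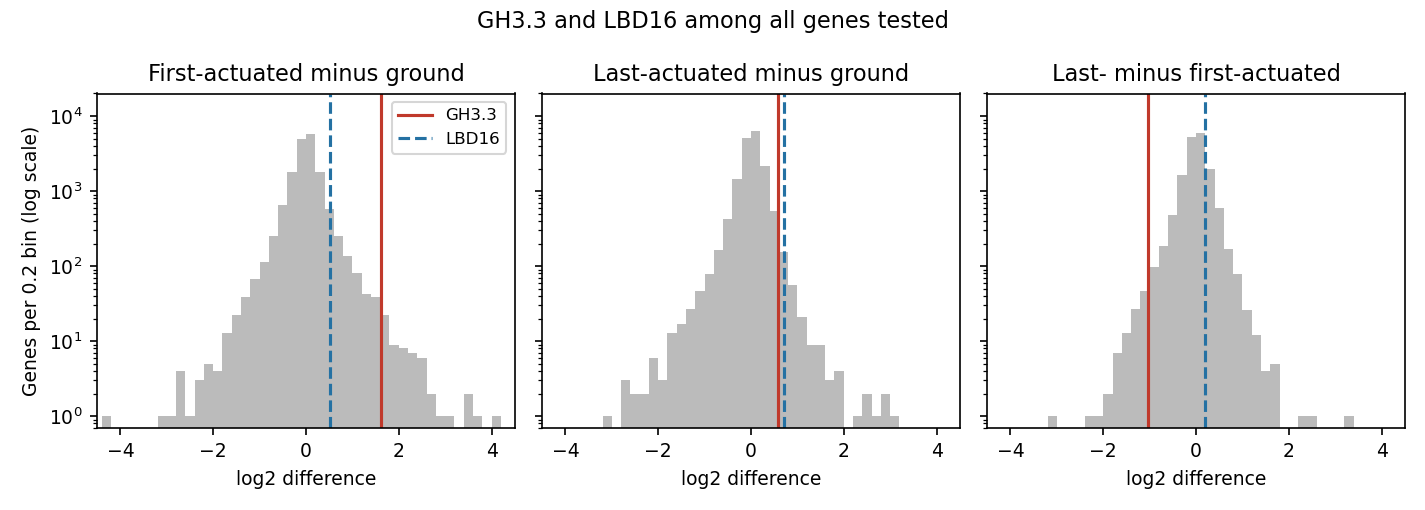
Number of genes (vertical axis, log scale) in each 0.2-wide bin of log2 difference (horizontal axis) for the 3 comparisons over all 16550 genes, with lines at GH3.3 (solid) and LBD16 (dashed). GH3.3 lies in the upper tail at 1.63 in first-actuated minus ground and in the lower tail at -1.04 between the flight tubes, and LBD16 lies at 0.53, 0.71 and 0.18.

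The ground arrays disagreed on GH3.3 more than on most genes. Its ground SD of 0.54 was exceeded by 4.66% of the 8275 genes with a mean level above the median gene mean, whereas the ground SD of LBD16 was exceeded by 78.1% of them. Ground replicate 2 held the highest GH3.3 level of its tube, 0.58 above the tube mean, and replicate 1 the lowest. The same arrays differed in transcripts of the chloroplast genome, whose median deviation over 63 genes was 1.22, -0.0050 and 0.82 in ground replicates 1, 2 and 3, against -0.48 to -0.15 on the flight arrays. The part of these transcripts in the GH3.3 values was not tested. Without ground replicate 2 the GH3.3 difference between last-actuated and ground roots was 0.88, and without ground replicate 1 it was 0.34. First-actuated minus ground kept to between 1.38 and 1.92 when any 1 array was left out. For LBD16 the corresponding ranges were 0.48 to 0.59 for first-actuated and 0.61 to 0.84 for last-actuated minus ground, but the difference between the flight tubes ran from 0.081 without last-actuated replicate 1 to 0.31 without last-actuated replicate 2, and was 0.31 after a further quantile normalization.

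The remaining GH3 genes were compared in the same way, to see whether GH3.3 had company in its family. None of the 5 other measured members passed the test in any comparison (limma, adjusted p over all genes), and 1 of the 5 had an unadjusted p under 0.05 in each of the comparisons that involve first-actuated roots. Over all genes, the share with such a p was 16.9% for first-actuated against ground and 13.4% between the flight tubes. The shares passing the test were 4.69% first-actuated against ground, 0.912% last-actuated against ground and 2.24% between the flight tubes. The GH3 gene was GH3.1, an auxin-inducible relative of GH3.3, which read 4.69, 4.65 and 4.75 on the first-actuated arrays and 4.13, 3.92 and 3.83 on the ground arrays. The last-actuated arrays read 4.39, 3.47 and 4.19. As for GH3.3, every first-actuated array lay above every array of the other tubes and those overlapped, as was the case for 3.82% of all genes. The log2 difference from ground was 0.74 ± 0.21 (SE; adjusted p = 0.0801) right after microgravity and 0.057 ± 0.21 (adjusted p = 0.945) after level flight, and between the flight tubes it was -0.68 (adjusted p = 0.148). The first-actuated call of GH3.1 depended on the fit, with an adjusted p of 0.0218 when only those 2 tubes were fitted, 0.00997 without last-actuated replicate 2 and 0.232 without first-actuated replicate 3.

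GH3.5, also known as WES1, which encodes an amido synthetase that can conjugate both auxin and salicylic acid, stood at 6.85 ± 0.38 (SD, n = 3) on the ground, 6.83 ± 0.14 right after microgravity and 6.92 ± 0.081 after level flight. Its first-actuated minus ground difference was -0.025 (95% interval -0.41 to 0.37). GH3.17, whose enzyme conjugates auxin to glutamate, gave 0.23 (95% interval -0.12 to 0.58, adjusted p = 0.537). GH3.4 and GH3.9 had first-actuated differences of 0.067 and 0.044, and their means over the arrays lay under the median gene mean of 2.15. The difference between GH3.3 and its relatives was not tested, since GH3.3 was chosen for its high values. Across the 5 relatives the median difference was 0.067 for first-actuated and 0.057 for last-actuated minus ground, beside 0.0098 and 0.026 over all genes tested.

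The closest measured relative of LBD16 was LBD29, another auxin-induced LBD gene that acts with LBD16 in lateral root formation. LBD29 read 4.80, 5.25 and 5.07 on the ground, 4.84, 5.24 and 5.09 right after microgravity and 5.40, 5.40 and 5.21 after level flight. Its groups overlapped in every comparison. The difference from ground was 0.019 (95% interval -0.31 to 0.34, adjusted p = 0.976) in first-actuated roots and 0.30 (-0.024 to 0.62, adjusted p = 0.452) in last-actuated roots. The difference between LBD29 and LBD16 was likewise not tested. LOB, the founding gene of the family, which acts at organ boundaries, had differences of 0.054 and 0.088 at a mean level under the median gene mean. Of the 41 family members listed, 3 were measured, and LBD14, LBD17, LBD18 and LBD33 were not among the named probe sets used here.

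**Figure D3:**
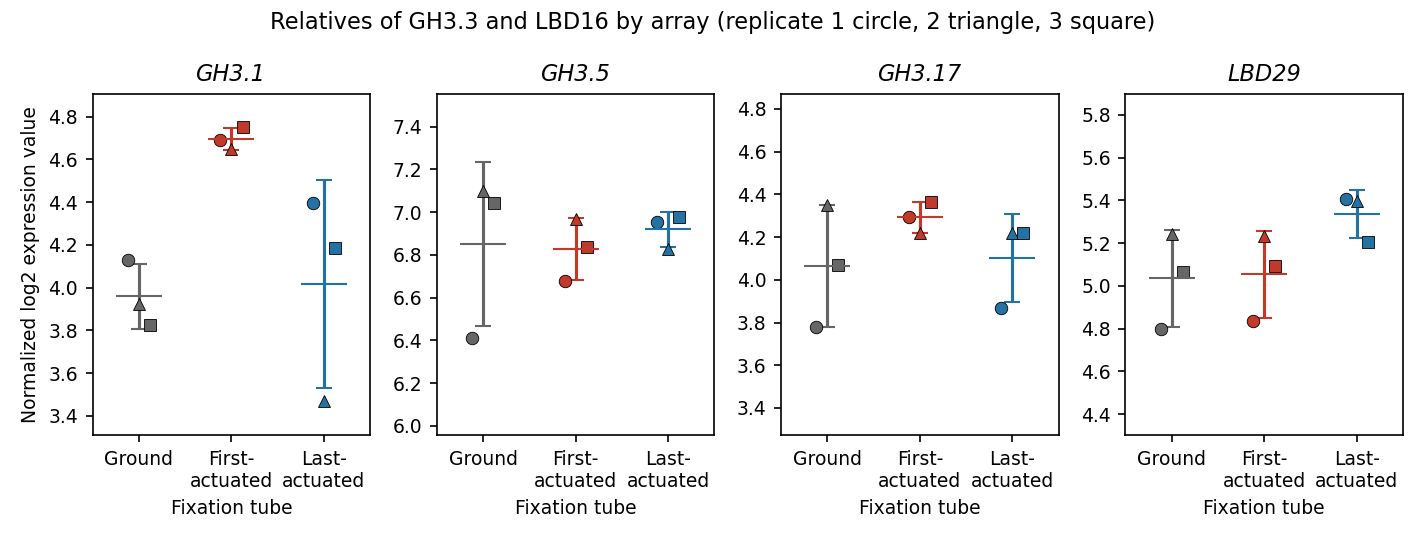
Normalized log2 expression values (vertical axes, drawn with the same span in all panels) of GH3.1, GH3.5, GH3.17 and LBD29 in the 3 fixation tubes; points are arrays, horizontal lines group means and bars the SD of 3 arrays. GH3.1 has its 3 first-actuated arrays (4.65 to 4.75) above all others, while the groups of GH3.5, GH3.17 and LBD29 overlap or touch.

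Beyond these families, the auxin pathway was followed from synthesis to response. Over all 11 auxin and lateral root lists, 26 of 247 listed genes were measured, and 24 remain after GH3.3 and LBD16 are left out. Of these 24, limma called 0 in each comparison, where 4.69%, 0.912% and 2.24% of all genes were called. At an unadjusted p under 0.05 there were 2 first-actuated against ground, 1 last-actuated against ground and 2 between the flight tubes, where the shares over all genes were 16.9%, 12.4% and 13.4%. The median log2 differences of the 24 were 0.042, 0.017 and -0.0033, beside 0.0098, 0.026 and 0.011 over all genes. Of the 24, 16 had a mean level under the median gene mean, and auxin receptors, auxin transporters, ARF factors and SAUR genes had no measured member, so the pathway was seen only in part.

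For synthesis, 4 YUC genes were measured, which encode the flavin monooxygenases that make auxin, and none was called. With shares called of 4.69%, 0.912% and 2.24% over all genes, the lack of calls among so few genes says little. YUC6 had the smallest p of them, at 2.16 ± 0.47 (SD, n = 3) on the ground, 1.90 ± 0.21 in first-actuated and 2.45 ± 0.14 in last-actuated roots. Its difference between the flight tubes was 0.54 (adjusted p = 0.287). For auxin removal by oxidation, DAO1, which encodes an auxin dioxygenase, and its relative DAO2 were not called. DAO2 had differences of 0.15 (adjusted p = 0.736) and -0.26 (adjusted p = 0.585) in first-actuated minus ground and last- minus first-actuated roots, and DAO1 of -0.15 (adjusted p = 0.794) in last-actuated minus ground.

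Of the 29 Aux/IAA genes, which encode the repressors of the auxin response and many of which are auxin-induced, 8 were measured and none was called. Here too the shares called over all genes were 4.69%, 0.912% and 2.24%, so nothing is read from this count. IAA30 read 1.62, 0.83 and 1.24 on the ground and 0.83, 0.92 and 0.78 in first-actuated roots, with a difference of -0.38 (adjusted p = 0.332). Between the flight tubes it gave 0.24 (adjusted p = 0.649), and IAA20 had the smallest p of the list after level flight, with -0.15 against ground (adjusted p = 0.678). The 8 genes had a median difference of -0.00045 for first-actuated and -0.054 for last-actuated minus ground.

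HAT2, an auxin-induced homeodomain-leucine zipper gene, had a difference of opposite sign to that of GH3.3 in first-actuated roots. It read 7.52, 7.54 and 7.55 there and 7.65, 8.12 and 7.93 on the ground, so that the groups did not overlap, as was the case for 9% of all genes in that direction. The difference was -0.36 ± 0.13 (SE; adjusted p = 0.180), and it passed the threshold only after a further quantile normalization (-0.52, adjusted p = 0.0219) or cyclic loess (-0.45, adjusted p = 0.0323) among the alternatives run. After level flight HAT2 stood at 7.82 ± 0.13, with -0.078 against ground (adjusted p = 0.862) and 0.28 against first-actuated roots (adjusted p = 0.390).

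Among the other lateral root genes, ACR4, which encodes a receptor kinase that restricts pericycle divisions, had the smallest p. Its difference from ground was -0.24 (adjusted p = 0.351) in first-actuated and -0.33 (adjusted p = 0.276) in last-actuated roots, at levels between 1.01 and 1.53. PUCHI, an auxin-induced AP2 factor of the young primordium, gave 0.097 and 0.040. Neither gene was called, where 4.69%, 0.912% and 2.24% of all genes were. LBD29 had the smallest p of the list between the flight tubes (0.28, adjusted p = 0.457).

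**Figure D4:**
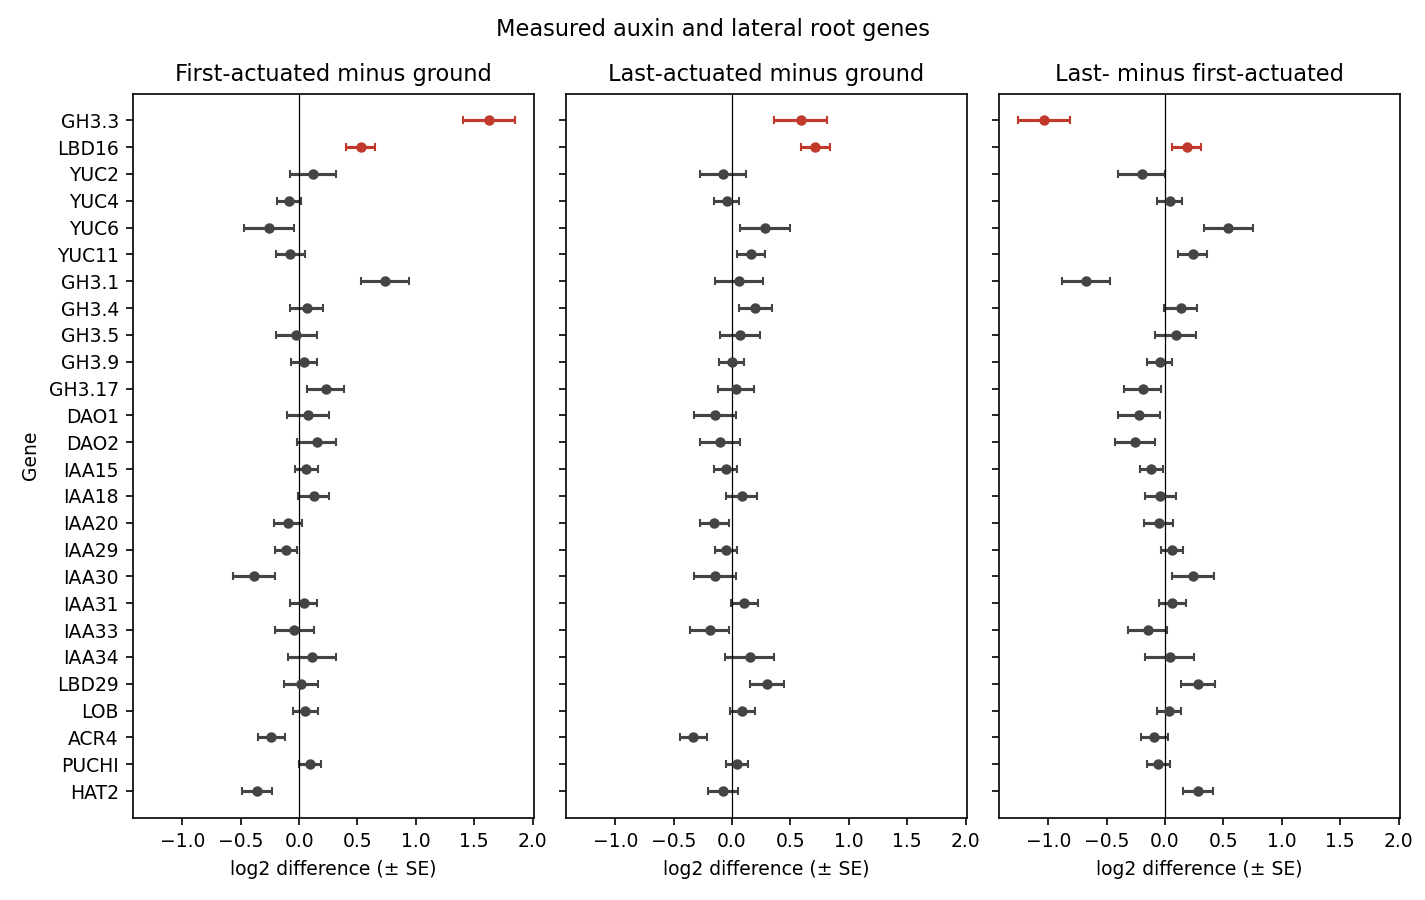
Log2 difference ± SE (horizontal axes, same scale in all panels) of each measured auxin and lateral root gene (vertical axis) in the 3 comparisons, with GH3.3 and LBD16 in red. GH3.3 at 1.63 and GH3.1 at 0.74 lie farthest right in first-actuated minus ground, and LBD16 at 0.71 and GH3.3 at 0.59 in last-actuated minus ground. None of the 24 genes drawn in black was called, beside 4.69%, 0.912% and 2.24% of all genes.

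Of the 3 measured root markers, 1 was called, in both comparisons that involve first-actuated roots. Of all genes, 4.69% were called first-actuated against ground and 2.24% between the flight tubes, and nothing is read from 1 gene of 3. EXPA18, an expansin gene of growing root hairs, rose from 4.20 ± 0.25 (SD, n = 3) on the ground to 5.16 ± 0.32 in first-actuated roots (limma, adjusted p = 0.0203) and fell to 4.26 ± 0.24 in last-actuated roots (adjusted p = 0.0454 between the flight tubes). EXPA7, another root hair expansin gene, did not follow it, with 4.88 ± 0.20, 4.24 ± 0.34 and 4.68 ± 0.088 (difference of -0.63, adjusted p = 0.0685 for first-actuated against ground). PYK10, a beta-glucosidase gene of the root, gave -0.24 (adjusted p = 0.297) in first-actuated and -0.40 (adjusted p = 0.148) in last-actuated minus ground. Leaving out replicate 1 or 3 of either the ground or the first-actuated tube ended the first of these EXPA18 calls (adjusted p = 0.0690 to 0.0861). The call between the flight tubes ended without any 1 array except ground replicate 2 (adjusted p = 0.0515 to 0.154). The part of the root markers in the GH3.3 and LBD16 values was not tested. The shoot markers RCA and LHCB4.1 were called in no comparison, where 4.69%, 0.912% and 2.24% of all genes were called.

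The genes whose levels ran most like those of GH3.3 and LBD16 over the 9 arrays were taken from the 1991 genes with a mean level above the median and group means at least 0.5 apart. Likeness was measured by Pearson's r across the 9 arrays, which share their tubes, and is given as a description, with no test of genes chosen by it. For GH3.3 the 5 most alike were AT1G13520, AT1G73480, AT1G05575, AT1G33110 and AT4G18950, with r from 0.983 to 0.992. AT1G13520 read 2.75, 3.96 and 3.22 on the ground, 4.90, 4.82 and 4.96 in first-actuated roots and 3.75, 4.19 and 4.02 in last-actuated roots. Like GH3.3, each of the 5 was highest on the ground in replicate 2 and lowest in replicate 1, and r between deviations from the tube means was 0.904 to 0.977. Selection by r over these same arrays largely fixes this likeness, so nothing further is read from it. AT1G05575 had the largest first-actuated difference of them, 2.29 ± 0.21 (SE).

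LBD16 was matched less closely. Its 5 most alike genes were the cytochrome P450 gene CYP71B34, AT1G31335, AT1G70590, AT1G72660 and the expansin gene EXPA23, with r from 0.912 to 0.953 and 0.385 to 0.825 for deviations from the tube means. CYP71B34 stood at 1.83 ± 0.060 (SD, n = 3) on the ground, under the median gene mean, at 2.52 ± 0.14 in first-actuated and at 2.80 ± 0.12 in last-actuated roots. EXPA23 was likewise under it on the ground, at 2.05 ± 0.24, with 2.59 ± 0.15 and 2.64 ± 0.33 in the flight tubes. CYP71B34 and EXPA23 thus passed the level filter only through the flight tubes, so their higher flight levels are partly a product of the filter. AT1G72660 differed from ground by 2.22 and 2.24 in the first-actuated and last-actuated tube, far more than LBD16, with the same arrangement of tubes. None of these 10 genes is in the auxin or lateral root lists, but few list genes could be ranked. Of the 24 other list genes, 16 had a mean level under the median gene mean. Others, such as LBD29 and HAT2, had group means less than 0.5 apart. Nothing is read from the absence of list genes. GH3.3 and LBD16 had an r of 0.53 with each other, and 39.0% of the 1991 genes ran more like GH3.3 than LBD16 did. Over the 24 other list genes, r with GH3.3 ran from -0.84 (IAA30) to 0.75 (GH3.17), and r with LBD16 from -0.64 (ACR4) to 0.59 (IAA31). GH3.1 had an r of 0.65 with GH3.3. Of the 1991 genes, 29.4% ran more like GH3.3 than GH3.17 did and 35.2% more than GH3.1 did.

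**Figure D5:**
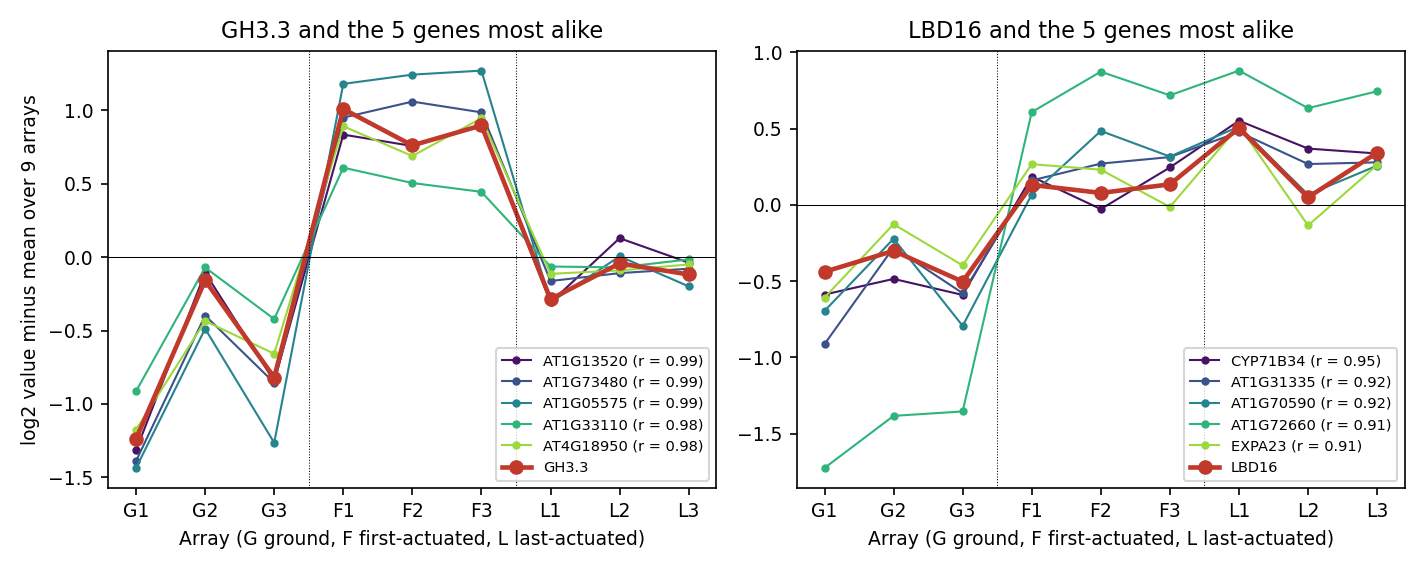
Log2 value minus the gene's mean over the 9 arrays (vertical axes) on each array (horizontal axes, G ground, F first-actuated, L last-actuated, numbered by replicate) for GH3.3 and LBD16 in red and the 5 genes most alike to each, with r in the legend. The GH3.3 set peaks in the first-actuated tube and shows the same spread among ground replicates, and the LBD16 set steps up in both flight tubes. These patterns follow largely from choosing the genes by r over the same arrays.

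GH3.3 and LBD16 both lie on chromosome 2, and their nearest measured neighbours in the gene table's order were looked up. AT2G23160, AT2G23200 and AT2G42395 had group means under the median gene mean of 2.15, so their small differences say little. AT2G23160, the gene just before GH3.3, had a first-actuated minus ground difference of 0.34 (limma, 95% interval 0.062 to 0.61, adjusted p = 0.184). Its first-actuated arrays all lay above its ground arrays, as for 9.41% of genes. AT2G42450, 2 genes after LBD16, had a difference of -0.069 (adjusted p = 0.772). AT2G23200, 3 genes after GH3.3, and AT2G42395, 6 genes before LBD16, gave -0.046 and 0.051. None of these 4 neighbours was called in any comparison, beside 4.69%, 0.912% and 2.24% of all genes.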

How the data were processed

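Biotin-labelled DNA made from whole-root RNA was read on AraGene 1.0 ST arrays. The authors deposited log2 values per probe set after RMA. Per the submitters' processing notes the tools were R 4.0.0 with oligo and limma, on the build TAIR10; their parameters are not given in sources used here. No detection calls were available. Of 38408 probe sets, 16722 had 1 gene name in the platform annotation and 16574 of those matched the RefSeq gene table (TAIR10.1), used for names and order alone. The 148 others kept the annotation's gene ID. All 16722 together gave 16550 genes, and for 146 genes with several probe sets the one of highest mean was kept.

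The 3 tubes were fitted together with limma 3.58.1 in R 4.3.3 (statmod 1.5.0), using eBayes with no trend. The residual degrees of freedom were 6 and the prior ones 3.89. P-values were adjusted by Benjamini-Hochberg over all 16550 genes and called under 0.05. The 95% intervals use the moderated SE. The pipeline was tested on simulated data. Python 3.11.15, pandas 2.3.3, numpy 2.4.6 and matplotlib 3.10.9 were used for tables and figures.

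GH3.3, LBD16 and the lists were chosen with earlier results of these data known. Named genes are all measured GH3 genes and near relatives of LBD16, called members of the other lists or else the member with the smallest p, and the 5 genes most alike to each of the pair by Pearson's r. The list of SAUR genes was taken by name from the gene table. Sequences are not shown. Alternatives were other normalizations, filters, moderation, weights, a replicate block, fits to 2 tubes and fits without each array.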

Additional observations from a re-analysis of the deposited data

How the results depend on the processing

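The log2 differences of GH3.3 and LBD16 kept their signs under all 14 alternatives run for each. Some of these leave a difference unchanged by construction and say nothing on its stability. They are the replicate block, the mean over probe sets, and fits without an array of the tube not compared. LBD16 in first-actuated minus ground was 0.39 instead of 0.53 after a further quantile normalization, a shift larger than the SD of either tube. Without any 1 array, GH3.3 ran from 1.38 to 1.92 for first-actuated minus ground, 0.34 to 0.88 for last-actuated minus ground and -1.10 to -0.97 for last- minus first-actuated roots. The count of called genes for first-actuated against ground was 419 instead of 776 with only those 2 tubes fitted, and 384 (without first-actuated replicate 3) to 1253 (without ground replicate 2) without 1 array. For last-actuated against ground it was 28 instead of 151 with only those 2 tubes, 255 with genes above the median mean, and 53 to 508 without 1 array. Between the flight tubes it was 597 instead of 371 with array weights and 100 to 495 without 1 array. Of the 24 other auxin and lateral root genes 1 in place of 0 was called first-actuated against ground under 5 settings. It was GH3.1 with array weights, with genes above the median mean or with only those 2 tubes, and HAT2 (lower) after a further quantile normalization or cyclic loess. Without 1 array this count was 0 to 1. It stayed at 0 in the other comparisons under every alternative run. The cause was not tested. With the replicate number as a block, 700, 109 and 303 genes were called for first-actuated against ground, last-actuated against ground and between the flight tubes, and 0 auxin list genes. Nothing says that numbers pair the replicates of different tubes. Deviations of same-numbered arrays correlated at -0.11 to 0.070, and in 10 of 18 cases an array correlated best with its own number in another tube. No array gives a detection limit, so differences of dim genes are uncertain.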

Other observations

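ILR3, a basic helix-loop-helix factor gene first named for resistance to an auxin-leucine conjugate, lay outside the lists and was chosen after its values were seen. It read 8.30, 8.71 and 8.47 on the ground, 8.86, 8.95 and 8.98 in first-actuated roots and 8.31, 8.26 and 8.56 in last-actuated roots. Its first-actuated arrays lay above all others, and the other tubes overlapped, an arrangement shared by 632 genes, or 3.82%. Nothing is read from ILR3 having it too. The log2 difference was 0.44 ± 0.13 (SE) against ground (limma, adjusted p = 0.103) and -0.55 between the flight tubes (adjusted p = 0.0642), so neither passed the threshold.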
